A study of Mus musculus with 20 samples.

Results

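CG-poor microRNA promoters are the subject of these measurements. They were chosen from the promoter table by rule: the gene symbol begins with Mir and a digit, or with Mirlet7, the probe lies on chromosomes 1 to 19, and it holds fewer than 30 CG sites. Named microRNA clusters that were large or described elsewhere, on chromosomes 12 and 2 and around Mir17, Mir25, Mir34 and Mir449, were left out. Of 22480 promoters, 994 had a microRNA symbol, 846 of the 923 autosomal ones lay outside the excluded clusters, and 413 of these were CG-poor. The rule used no methylation value. Each probe spans 2200 bp, from 2000 bp upstream to 200 bp downstream of the annotated start, and because a microRNA's annotated start is that of its hairpin, most probes do not cover the start of the primary transcript.

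MicroRNAs are short RNAs cut from hairpins that pair with messenger RNAs mainly through the seed, bases 2 to 8 counted from their 5′ end, and lower the stability or translation of those messengers. Many hairpins lie in introns of host genes and are transcribed with them. Methylation of cytosine in CG sites is dense over most of the sperm genome, with CG-rich promoters as the best known exception. MBD-sequencing captures DNA fragments that carry methylated CG sites, so the number of reads over a probe depends both on methylation and on the number of CG sites.

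Sperm DNA was measured in 20 F1 males aged 8 weeks, with 5 controls and 5 DEHP males of the strain C57BL/6J and as many of each in FVB/N, which makes 4 groups. DEHP mothers received bis(2-ethylhexyl)phthalate in corn oil by mouth at 300 mg/kg/day from day 9 to day 19 of pregnancy, and mothers of the control groups received corn oil alone. Both strains are inbred, no transgene or deletion is involved, and sperm was left to diffuse out of the cut vas deferens and epididymis. The labels do not say whether males of one group shared a litter. The 5 libraries of a group are known here only by the authors' mean and SD of normalized reads, so differences below are ratios of means without a test, and library depth could not be read from the files.

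To show what a CG-poor probe looks like, 4 stretches of 300 bases are given from mm10, on the strand of the microRNA and 5′ to 3′, with each CG site in capitals. Mir344d-3 stands for the poorest probes, with 3 CG sites in all, and its densest stretch at chr7:61727170-61727469 (minus strand) holds 2. The densest stretches of Mir16-2 at chr3:69009366-69009665 (plus strand) and of Mir455 at chr4:63256685-63256984 (plus strand) hold 6 of 18 and 11 of 28 sites, and they belong to promoters whose DEHP and control libraries separated in opposite directions. The stretch of Mir6388 at chr12:115696825-115697124 (minus strand) holds 15 of its 26 sites, and this promoter had the widest difference between strains.
Mir344d-3: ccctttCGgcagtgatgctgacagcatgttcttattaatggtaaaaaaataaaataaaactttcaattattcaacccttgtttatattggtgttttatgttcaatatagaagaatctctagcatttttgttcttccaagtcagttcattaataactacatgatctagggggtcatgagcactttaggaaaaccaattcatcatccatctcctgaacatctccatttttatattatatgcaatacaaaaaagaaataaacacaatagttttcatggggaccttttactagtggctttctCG
Mir16-2: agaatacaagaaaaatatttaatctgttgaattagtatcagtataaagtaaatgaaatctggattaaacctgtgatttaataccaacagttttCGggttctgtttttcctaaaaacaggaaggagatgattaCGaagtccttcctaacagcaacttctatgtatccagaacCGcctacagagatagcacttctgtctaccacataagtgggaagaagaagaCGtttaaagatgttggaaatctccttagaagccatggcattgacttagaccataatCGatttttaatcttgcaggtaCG
Mir455: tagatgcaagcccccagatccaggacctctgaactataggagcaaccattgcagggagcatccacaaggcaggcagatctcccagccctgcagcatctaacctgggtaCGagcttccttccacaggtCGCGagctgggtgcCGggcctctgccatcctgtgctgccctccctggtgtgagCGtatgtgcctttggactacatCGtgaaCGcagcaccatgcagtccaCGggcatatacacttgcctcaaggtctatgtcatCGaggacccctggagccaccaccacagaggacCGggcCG
Mir6388: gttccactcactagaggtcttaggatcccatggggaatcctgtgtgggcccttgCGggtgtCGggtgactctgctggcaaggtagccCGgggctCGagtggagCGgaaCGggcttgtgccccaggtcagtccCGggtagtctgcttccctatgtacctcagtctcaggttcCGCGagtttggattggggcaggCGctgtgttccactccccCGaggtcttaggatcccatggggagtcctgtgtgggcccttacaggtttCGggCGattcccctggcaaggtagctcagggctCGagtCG

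Mature microRNAs were matched by symbol to RefSeq (GRCm38.p6). A hairpin was found for 326 of the 413 members and a mature sequence is listed for 362. These carry 494 different seeds, of which 45 were shared by at least 2 members and 7 by at least 4. With the seed in capitals, the sequences given are the arms with the shared seed from the 2 largest seed families and from let-7, which recur in the results, and of 5 members with separated libraries. The AGCAGCA seed is that of miR-15 and miR-16, which are known to restrain cell cycle and survival genes such as Ccnd1 and Bcl2. The GAGGUAG seed is that of let-7, which promotes differentiation and is kept low in early embryos by Lin28.
miR-15a-5p (Mir15a): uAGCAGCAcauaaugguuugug
miR-15b-5p (Mir15b): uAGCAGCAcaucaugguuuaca
miR-16-5p (Mir16-1 and Mir16-2): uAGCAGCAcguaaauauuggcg
miR-195b (Mir195b): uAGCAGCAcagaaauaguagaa
miR-6342 (Mir6342): cAGCAGCAaucuggucuuugag
miR-6353 (Mir6353): uAGCAGCAcguauuuauccuauu
miR-6419 (Mir6419): cAGCAGCAaucugacacaugga
miR-344-5p (Mir344 and Mir344-2): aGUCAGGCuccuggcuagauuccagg
miR-344b-5p (Mir344b): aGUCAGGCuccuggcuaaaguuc
miR-344g-5p (Mir344g): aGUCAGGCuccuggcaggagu
miR-344d-1-5p (Mir344d-1): aGUCAGGCugcuggcuauacacca
miR-344d-3-5p (Mir344d-3): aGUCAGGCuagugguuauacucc
let-7a-5p (Mirlet7a-1): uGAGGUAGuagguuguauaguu
let-7c-5p (Mirlet7c-1): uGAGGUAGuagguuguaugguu
let-7d-5p (Mirlet7d): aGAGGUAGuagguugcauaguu
let-7f-5p (Mirlet7f-1): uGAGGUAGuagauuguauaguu
miR-455-5p (Mir455): uAUGUGCCuuuggacuacaucg
miR-186-5p (Mir186): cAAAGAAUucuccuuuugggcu
miR-218-5p (Mir218-2): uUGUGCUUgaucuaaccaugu
miR-26a-5p (Mir26a-2): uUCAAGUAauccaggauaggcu
miR-6345 (Mir6345): uAGCACUGcucagggugaacu

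The 413 probes fell into 386 separate regions, since 47 of them shared bases with another member. Their CG sites ranged from 3 to 29 with a median of 18, repeat-masked bases made up a median of 18.9%, and a median of 99.1% of sampled 51-base sequences occurred once in the genome. By the GENCODE annotation, 203 hairpins were intronic on the strand of a host gene, 64 exonic on that strand, 47 intronic and 3 exonic on the opposite strand, and 96 intergenic. Symbols numbered 1000 or above, mostly microRNAs annotated late, made up 251 of the members. No variant between the strains was listed for 230 probes, and the highest number was 58.

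Over all 22480 promoters the authors' means summed to between 141092 normalized reads in FVB/N controls and 226268 in C57BL/6J controls. The median log2 ratio of control over DEHP over all promoters was 0.10 for C57BL/6J and -0.35 for FVB/N, and the members' ratios are to be read against these shifts. Controls and DEHP libraries were submitted separately, each submission with 10 libraries from both strains. Treatment and submission therefore cannot be told apart. Per the study's methods, DEHP libraries also had more read pairs on average and slightly longer reads than controls, and the part of this in the ratios was not tested. Imprinted loci did not serve as a check of the label sperm in these probes: 10 maternally methylated promoters ranged from 0.5 to 26.5 normalized reads over the 4 groups and 3 paternally methylated ones from 2.4 to 25.8.

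Methylation signal over CG-poor microRNA promoters went with the number of CG sites the probe held. For the median member, C57BL/6J controls had 12.8 normalized reads (range 0 to 61.9) and the DEHP group of that strain 10.7 (0.6 to 27.8). FVB/N controls had 7.3 (0 to 38.6) and their DEHP group 10.3 (0 to 31.8). The other 6723 CG-poor autosomal promoters had medians of 5.9, 7, 3.3 and 6.4, and the 433 CG-rich microRNA promoters 35.6, 15.9, 20.5 and 16.7. The spread between libraries was widest in FVB/N controls, where the SD was 0.723 of the mean for members with means of 5 to 10 normalized reads. It was 0.487 in the other controls and 0.368 and 0.345 after DEHP in C57BL/6J and FVB/N. Other CG-poor promoters with such means had 0.711, 0.426, 0.364 and 0.344 in the same order, and all promoters 0.627, 0.425, 0.38 and 0.35. The wider spread in FVB/N controls was therefore not particular to the members.

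From the poorest probes (3 to 9 CG sites, n = 52) to the densest (25 to 29, n = 98), the median level went from 1.65 to 29.25 normalized reads in C57BL/6J controls and from 1.1 to 16.9 in FVB/N controls, ratios of 17.7 and 15.4. In the DEHP groups it went from 3.4 to 16.1 in C57BL/6J and from 3.05 to 16.85 in FVB/N, ratios of only 4.74 and 5.52. Spearman's rho between CG sites and level was 0.81, 0.745, 0.783 and 0.729 in the 4 groups in the order above, across 413 promoters of the same libraries. For the highest number of CG sites within 200 bases (1 to 14, median 5) rho was lower, at 0.679, 0.526, 0.708 and 0.555. Other CG-poor promoters had rho of 0.675, 0.609, 0.659 and 0.59 between CG sites and level. From 3 to 9 up to 25 to 29 sites, their median went from 1.4 to 17 in C57BL/6J controls and from 1 to 9.4 in FVB/N controls. After DEHP it went from 2.9 to 11.9 in C57BL/6J and from 2.6 to 11.35 in FVB/N.

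**Figure D1:**
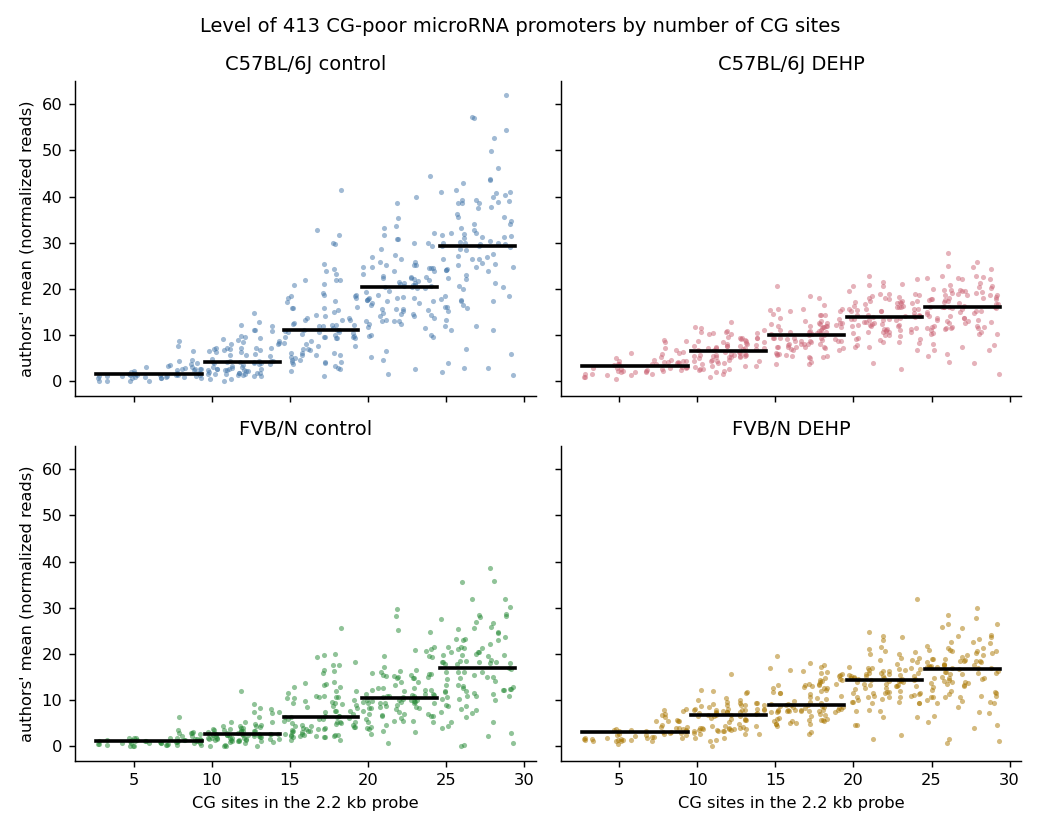
Authors' mean of normalized reads (y axis) of each of 413 promoters against its number of CG sites (x axis, points shifted sideways by less than 1 site), in one panel per group; black bars are medians of 5 ranges of CG sites. Levels climb with CG sites in every group, and more steeply in both control groups, to a median of 29.25 in C57BL/6J controls.

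At the extremes of level, the promoter of Mir705 was the highest, an exonic hairpin of Rab11fip5 with 29 CG sites, at 61.9 ± 26.8, 24.4 ± 10.5, 28.7 ± 24.5 and 24.1 ± 4.9 normalized reads (authors' mean ± SD over 5 libraries; first both C57BL/6J groups and then both FVB/N groups, each time controls before DEHP, an order kept below). Mir6978, in an intron of the complement gene C3, followed at 57.2 ± 14.2, 22.4 ± 10.5, 32.0 ± 20.6 and 23.8 ± 4.2. Mir7068 and Mir7219 tied for the third place with a mean of 32.1 over the groups. All 4 were highest in C57BL/6J controls. At the other end, Mir195b and Mir6375 both averaged 0.525 over the groups. Mir6375 was listed at 0 in both control groups, and only 21.3% of its sampled 51-base sequences were unique, the lowest share of any member. The authors dropped read pairs with several positions, and the part of this in the level was not tested. Mir713 was low for its CG sites, with 29 of them and means of 1.4, 1.7, 0.7 and 1.1, and 72.2% of its sequences were unique. Its probe also holds the start of a protein-coding gene and up to 12 CG sites within 200 bases. The part of any of these in its level was not tested. Across the 34 members under 90% unique the median level was 5.7, 5.9, 2.1 and 5.15, with a median of 13.5 CG sites.

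The question of the study was how prenatal DEHP relates to sperm methylation in each strain. Positive log2 ratios below are higher in controls, that is hypo-methylated in DEHP, and negative ones are hyper-methylated in DEHP; 1 normalized read was added to each mean. In C57BL/6J the median log2 ratio of the members was 0.20 (range -1.76 to 1.96), with 247 above 0 and 165 below, so that DEHP was higher for 40% of members and 43.5% of all promoters. In FVB/N it was -0.46 (range -2.47 to 1.37), with 96 above 0 and 310 below, or DEHP higher for 75.1% against 69.1%. These shares followed the scale: with equal sums DEHP was higher for 276 C57BL/6J and 293 FVB/N members (68.5% and 66.6% of all promoters), and with equal medians for 160 and 173 (41% and 39.8%). Relative to all promoters the members therefore lay 0.10 higher in C57BL/6J and 0.11 lower in FVB/N, and when means were scaled to equal sums the C57BL/6J median became -0.31, against -0.33 for all promoters. Scaled to equal medians, the FVB/N median became 0.14, against 0.18 for all promoters. CG-rich microRNA promoters had medians of 1.04 and 0.40 and other CG-poor promoters -0.11 and -0.60.

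The log2 ratio of the members climbed with their CG sites in both strains, from negative to positive medians in C57BL/6J, while in FVB/N the median of every range was negative as deposited. In C57BL/6J the median log2 ratio was -0.53 at 3 to 9 CG sites, -0.43 at 10 to 14, 0.13 at 15 to 19, 0.44 at 20 to 24 and 0.71 at 25 to 29. In FVB/N the same ranges gave -0.82, -0.90, -0.48, -0.33 and -0.07. As deposited, 4 of the 52 poorest probes were above 0 in C57BL/6J, against 89 of the 98 densest, and in FVB/N 2 and 44. The poorest probes had a negative median under equal sums (-0.93 in C57BL/6J, -0.84 in FVB/N) and equal medians (-0.46 in both), and the densest a median of 0.17 and 0.01 under equal sums and of 0.79 and 0.59 under equal medians. The densest range of FVB/N therefore changed sign with the scale, from -0.07 as deposited. The middle ranges did as well: at 15 to 19 and 20 to 24 sites C57BL/6J had -0.38 and -0.09 under equal sums, and FVB/N had 0.13 and 0.33 under equal medians. Under all 3 scales the medians were higher at 25 to 29 sites than at 3 to 9.

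Other CG-poor promoters followed the same course, with -0.63 at 3 to 9 CG sites and 0.46 at 25 to 29 for C57BL/6J, while FVB/N had -0.76 and -0.22. At 25 to 29 sites the microRNA promoters also had more reads in C57BL/6J controls, with a median of 29.25 against 17. Past the limit of the rule, CG-rich microRNA promoters of 30 to 39 sites had medians of 1.05 and 0.32, those of 40 to 59 sites 1.33 and 0.75, and those of 60 or more 0.58 and 0.19. At the limit itself, the 17 members with 29 CG sites, Mir183, Mir27a and Mir24-2 among them, had medians of 0.86 for C57BL/6J and 0.18 for FVB/N. The 18 microRNA promoters with 30 sites, such as Mir192, Mir365-1 and Mirlet7g, had 0.97 and 0.23. Spearman's rho between CG sites and log2 ratio was 0.681 for C57BL/6J and 0.516 for FVB/N across the 413 members, which share libraries and whose GC content goes with the ratio as well (0.666 and 0.448).

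**Figure D2:**
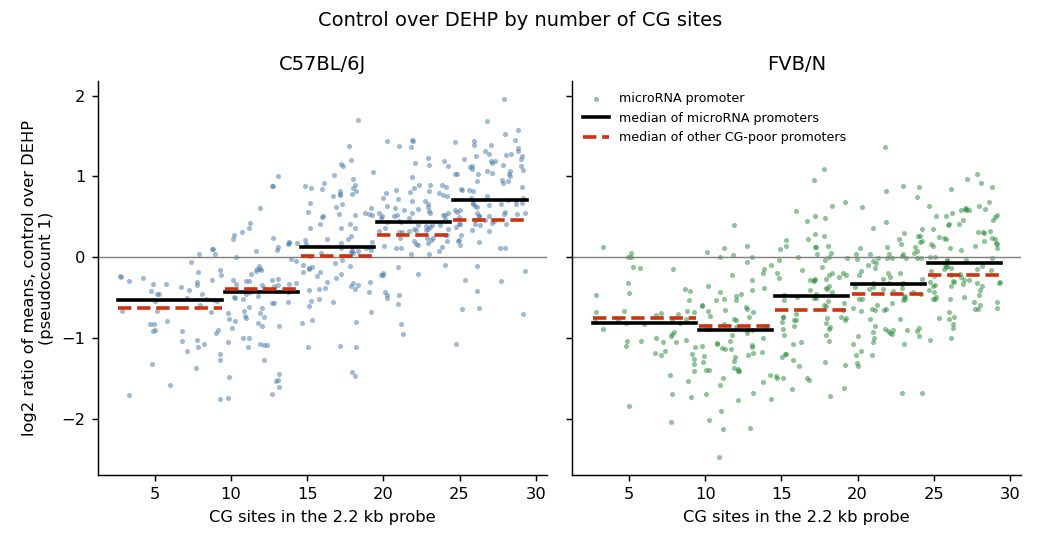
Log2 ratio of means, control over DEHP (y axis, pseudocount 1), of each member against its CG sites (x axis) in C57BL/6J and FVB/N; solid black bars are medians of the microRNA promoters and dashed red bars of other CG-poor promoters. The medians climb from -0.53 to 0.71 (C57BL/6J) and from -0.82 to -0.07 (FVB/N).

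Few members separated clearly between control and DEHP libraries. A pair of groups was called separated when the lowest value that any library can have in one, 1.789 SD below its mean, lay above the highest possible value of the other, with means and SDs widened by 0.05 for rounding. Ranges that overlap do not show whether the libraries overlap. In C57BL/6J, controls lay above DEHP for 7 members (1.69%, against 1.42% of all promoters) and DEHP above controls for 4 (0.97%, against 0.249%). In FVB/N, controls lay above for 3 (0.73%, against 0.859%) and DEHP above for 4 (0.97%, against 0.774%). Log2 ratios past 1 were found for 53 C57BL/6J members (12.8%, against 10.7%) and 3 FVB/N members (0.73%, against 2.68%). Ratios past -1 were found for 31 (7.51%, against 5.09%) and 84 (20.3%, against 14.4%). Among other CG-poor promoters, the C57BL/6J share past -1 was 9.56% and the FVB/N share 23.7%, both above those of members. Past 1, their shares were 5.41% and 0.58%, in the same order and both below those of members. Separation with DEHP above was found for 0.58% and 1.5% of these promoters, and with controls above for 0.684% and 0.193%. With the scale set to equal sums, C57BL/6J separations were 0 with controls above (0.129% of all promoters) and 6 with DEHP above (1.02%), and those of FVB/N 3 (1.04%) and 3 (0.627%). With equal medians they were 8 (1.88%) and 4 (0.222%), and 14 (3.25%) and 2 (0.125%). Members past 1 and past -1 numbered 4 (2.22%) and 73 (14.7%) in C57BL/6J under equal sums and 6 (3.61%) and 79 (13.6%) in FVB/N, and under equal medians 59 (12.6%) and 22 (3.83%), and 43 (13.5%) and 26 (3.86%). All 53 members past 1 in C57BL/6J held at least 15 CG sites. Other CG-poor promoters were alike: of 364 past 1 in C57BL/6J, 2 held 3 to 9 sites and 12 held 10 to 14.

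Hyper-methylated in DEHP in C57BL/6J were 2 microRNA loci. The first holds Mir15b and Mir16-2 in an intron of Smc4, a condensin subunit gene, with probes that share 2070 bases and count as 1 region (Mir16-2 at chr3:69007902-69010101, 18 CG sites). Mir16-2 had 3.0 ± 0.9, 10.1 ± 2.3, 2.5 ± 1.9 and 5.5 ± 1.2 normalized reads, and Mir15b 3.3 ± 0.9, 10.5 ± 2.7, 2.5 ± 1.9 and 5.8 ± 1.1. The C57BL/6J control libraries can reach at most 4.75 for Mir16-2 while those of DEHP cannot fall under 5.85, and the log2 ratio of the means was -1.47. The ratio had the same sign in FVB/N at -0.89, with overlapping ranges. The separation in C57BL/6J held under equal sums and equal medians.

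The twin locus on chromosome 14, Mir15a and Mir16-1 in the non-coding gene Dleu2, encodes nearly the same microRNAs and had similar values. Mir16-1 (chr14:61631773-61633972, 13 CG sites) had 1.2 ± 1.2, 6.1 ± 2.2, 2.2 ± 1.6 and 4.0 ± 1.3 normalized reads, log2 ratios of -1.69 for C57BL/6J and -0.64 for FVB/N, with ranges that overlap in both strains. Mir15a, whose probe shares 2062 bases with it, had -1.61 and -0.68. All 8 members with the AGCAGCA seed, in 6 regions and with 5 to 19 CG sites, had higher means in DEHP in both strains (log2 ratios from -1.69 to -0.14 in C57BL/6J and from -1.58 to -0.22 in FVB/N), while under equal medians 2 of the 8 turned in FVB/N. Other CG-poor promoters with 5 to 19 CG sites were higher in DEHP for 69.7% in C57BL/6J and 90.2% in FVB/N. Within the family the level went from Mir195b, at 0.2 to 1.1 normalized reads, to Mir6353, at 12.2 ± 3.1, 15.3 ± 6.3, 10.1 ± 4.1 and 15.5 ± 6.4, whose DEHP and control ranges overlapped in both strains.

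The second locus is the miR-344 cluster on chromosome 7, with 11 member symbols in 10 regions between 61682993 and 62087310, holding 3 to 13 CG sites and no variant between the strains. Levels were low throughout: the median over the 11 was 0.9 in controls and 2.9 after DEHP for C57BL/6J, while FVB/N had 0.8 and 1.9. DEHP had the higher mean for 11 of 11 in C57BL/6J, as deposited and under both other scales, and for 9 of 11 in FVB/N, likewise. Among other CG-poor promoters with 3 to 13 CG sites, DEHP was higher for 82.5% and 90.8% as deposited, so most such probes had this direction. Mir344d-3 (chr7:61726129-61728328) had 0.2 ± 0.5, 2.9 ± 0.7, 1.3 ± 0.9 and 1.1 ± 0.8 normalized reads, and was separated in C57BL/6J but nearly level in FVB/N. Mir344 (chr7:61877665-61879864) was listed at 0 ± 0 in C57BL/6J controls against 2.0 ± 0.5 in DEHP, and at 0.8 ± 0.8 and 2.2 ± 0.9 in FVB/N. Both lie in introns of the lincRNA A230057D06Rik and were separated in C57BL/6J under each of 3 scales.

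In FVB/N, other copies of the same cluster were separated. Mir344-2 (chr7:61939907-61942106, 13 CG sites), with the same mature sequences as Mir344, had 1.8 ± 1.7, 7.1 ± 2.2, 0.2 ± 0.4 and 4.2 ± 1.5 normalized reads. Mir344d-1 (chr7:61682993-61685192, 11 CG sites) had 2.4 ± 2.2, 4.4 ± 1.2, 0.3 ± 0.6 and 6.2 ± 2.5, and its log2 ratio of -2.47 was the lowest of the members in FVB/N. The log2 ratio was negative for both in C57BL/6J too, at -1.53 and -0.67, where ranges overlapped. Under equal medians neither stayed separated in FVB/N, and under equal sums Mir344-2 did. These means lie within a few normalized reads of 0, and the part of depth was not tested.

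Outside these families, Mir6350 and Mir6345 were hyper-methylated in DEHP in FVB/N under all 3 scales. Mir6350 is intergenic (chr1:47466926-47469125, 8 CG sites, 88.9% unique) and had 2.4 ± 2.5, 5.9 ± 3.0, 0.9 ± 0.5 and 6.8 ± 1.7 normalized reads. Mir6345 lies in an intron of Ppp1r7, a regulator of protein phosphatase activity (chr1:93350158-93352357, 17 CG sites), and had 7.6 ± 3.0, 8.0 ± 2.3, 3.8 ± 1.6 and 12.8 ± 0.7. For this promoter the C57BL/6J means were nearly equal, at a log2 ratio of -0.07, and FVB/N had -1.52. The difference between strains was not tested.

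Hypo-methylated in DEHP were members with 20 to 29 CG sites. Mir455 was the only member separated the same way in both strains, and 0 were separated in opposite directions, counts not computed over all promoters. It lies in an intron of Col27a1, a fibrillar collagen gene, and is known from cartilage (chr4:63254851-63257050, 28 CG sites). It had 43.6 ± 9.5, 19.2 ± 3.5, 38.6 ± 5.4 and 18.4 ± 4.0 normalized reads, log2 ratios of 1.14 and 1.03. FVB/N controls cannot have fallen under 28.8 while FVB/N DEHP cannot have passed 25.7. Under equal sums it remained separated in FVB/N, and in C57BL/6J its ratio became 0.60 with overlapping ranges.

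In C57BL/6J the other 6 were Mir7035, Mir218-2, Mir26a-2, Mir684-2, Mir1892 and Mir6929, with log2 ratios from 1.57 to 0.79. Mir7035, in an exon of the Ras regulator gene Rasa4, had 40.3 ± 8.2, 12.9 ± 5.4, 31.8 ± 17.1 and 17.0 ± 5.1 normalized reads. Mir218-2, in an intron of the axon guidance gene Slit3, had 40 ± 4.7, 13.3 ± 4.5, 26.8 ± 5.8 and 16.9 ± 3.0. Mir26a-2, hosted by the phosphatase gene Ctdsp2, had 40.9 ± 9.1, 14.6 ± 5.0, 27.5 ± 14.8 and 17.3 ± 2.0. All 6 had lower means in DEHP in FVB/N as well, where log2 ratios ran from 0.11 for Mir6929 to 0.89 for Mir684-2 and ranges overlapped. Under equal sums 0 of the 7 C57BL/6J calls stayed separated, although each mean remained higher in controls, and under equal medians all 7 did.

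In FVB/N, Mir186 and Mir7057 joined Mir455 and were separated under all 3 scales. Mir186, in an intron of the splicing factor gene Zranb2 (chr3:157542279-157544478, 22 CG sites), had 33.7 ± 8.0, 12.5 ± 5.1, 28.2 ± 6.6 and 10.3 ± 3.2 normalized reads. Its log2 ratios of 1.36 for C57BL/6J and 1.37 for FVB/N were almost equal, and in C57BL/6J the ranges overlapped only between 19.3 and 21.8. Mir7057, in an intron of Lrrk1, had 29.7 ± 6.1, 12.7 ± 3.9, 28.1 ± 3.4 and 13.9 ± 1.3. In all, 17 of 413 members were separated in either strain, and the matching share over all promoters was not computed.

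**Figure D3:**
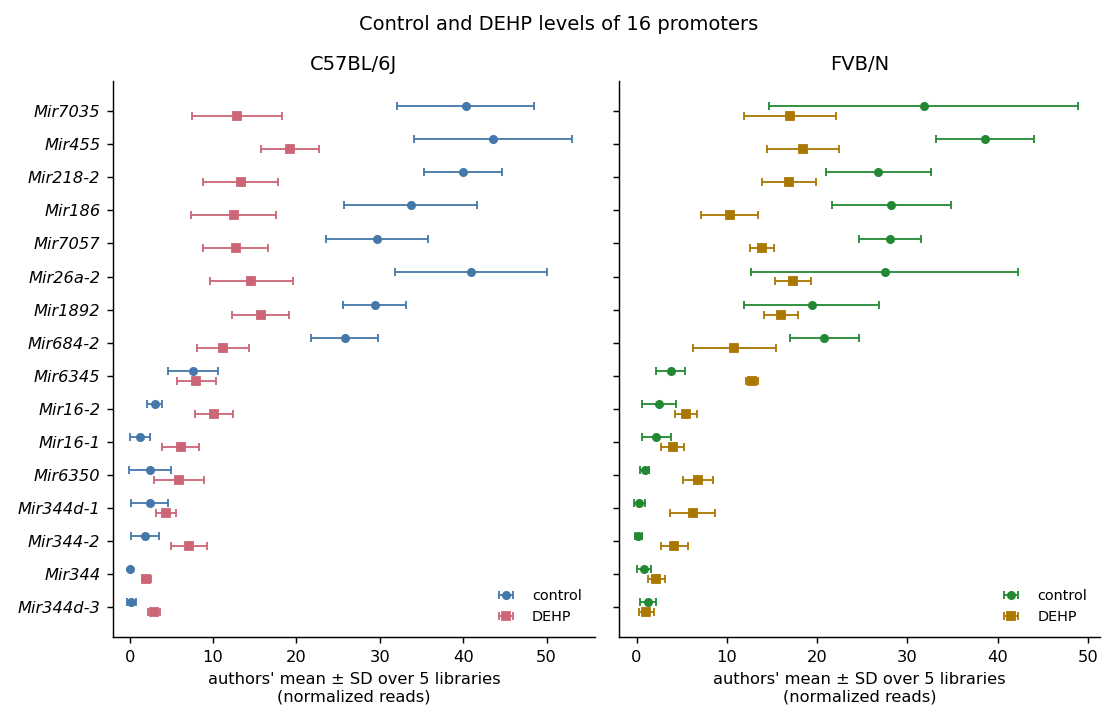
Authors' mean ± SD of normalized reads over 5 libraries (x axis) for 16 promoters (y axis). Rows are not sorted by CG sites, with Mir344d-3 (3 sites) at the bottom and Mir7035 (29) at the top. Controls are circles and DEHP squares, C57BL/6J left and FVB/N right. In C57BL/6J the lower rows lie further right in DEHP and the upper rows further right in controls, as for Mir455 at 43.6 against 19.2, while in FVB/N the lowest row, Mir344d-3, is nearly level at 1.3 in controls and 1.1 in DEHP.

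Positions of CG sites differed between these promoters. The sites of Mir186 cluster about 1 kb upstream of the hairpin, up to 10 within 200 bases, those of Mir455 lie upstream, midway and over the hairpin itself, and the 18 sites of Mir16-2 are spread with at most 5 in 200 bases.

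**Figure D4:**
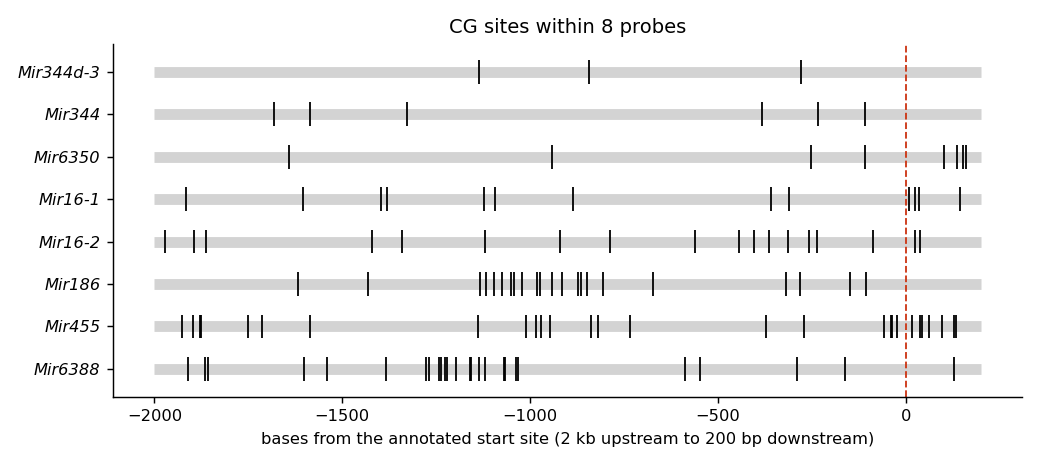
CG sites (black ticks) in 8 probes (grey bars) by distance in bases from the annotated start (x axis, red dashed line). Mir344d-3 holds 3 sites and Mir455 28.

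Lists of microRNAs by known role showed where such promoters stood. Their medians are to be read beside 0.10 and -0.35 for all promoters. They are also to be read beside the medians of other CG-poor promoters in the CG range of each list, given below. The let-7 list had 6 members, with median log2 ratios of -0.41 for C57BL/6J and -1.16 for FVB/N and DEHP higher for 5 and 6 of them. Of other CG-poor promoters with 9 to 17 CG sites, the range of this list, DEHP was higher for 67.5% and 91.3%, with medians of -0.31 and -0.81. Mirlet7c-1, the highest, had 10.8 ± 3.0, 13.1 ± 2.5, 10.7 ± 3.1 and 13.2 ± 5.1 normalized reads, and Mirlet7a-2 11.1 ± 4.9, 10.7 ± 2.7, 2.5 ± 2.6 and 5.0 ± 2.9. Mirlet7d, Mirlet7f-1 and Mirlet7a-1 form 1 region on chromosome 13 with 9 to 12 CG sites and a median ratio of -1.20 and -1.40. Of these 6, 0 were separated in either strain, and under equal medians 1 turned in FVB/N.

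Repeat-related microRNAs (miR-297, miR-466, miR-467 and miR-669 families, 6 members) had medians of -0.44 and -1.16, with DEHP higher for 5 for C57BL/6J and 6 for FVB/N. Other CG-poor promoters within their 5 to 21 CG sites had medians of -0.30 and -0.74, and DEHP was higher for 65.9% and 89.1%. Mir466h had 13.2 ± 2.4, 12.1 ± 2.3, 8.8 ± 3.0 and 14.4 ± 4.5 normalized reads and Mir467c 6.4 ± 4.3, 10.9 ± 2.8, 3.4 ± 4.5 and 9.7 ± 3.1. The list of miR-15/16 and miR-23/24/27 clusters (10 members) had 0.06 and -0.64 and was divided: the 4 of miR-15/16 were higher in DEHP, while Mir27a, a neighbour of Mir23a and Mir24-2 with 29 CG sites, had 41.0 ± 13.9, 16.7 ± 4.8, 12.5 ± 9.0 and 11.5 ± 2.1. Mir23b, from the related locus on chromosome 13, had 39.2 ± 14, 24.9 ± 11.1, 19.7 ± 10.7 and 28.5 ± 3.9, higher in controls in C57BL/6J and lower in FVB/N. Other CG-poor promoters in the CG range of the miR-15/16 and miR-23/24/27 list had medians of -0.08 and -0.60. As deposited, the only separated members in any of these lists were Mir15b and Mir16-2. Under equal medians Mir1a-1, of the muscle list described below, was separated as well, in FVB/N with controls above.

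Muscle microRNAs (7 members) had medians of 0.33 and -0.49. Mir1a-1, which acts in heart and skeletal muscle, had 31.3 ± 5.8, 13.1 ± 7.3, 21.2 ± 2.0 and 13.8 ± 3.3 normalized reads, and its partner Mir133a-2 24.8 ± 10.6, 19.6 ± 8.9, 10.9 ± 9.5 and 15.7 ± 7.1. Blood and immune microRNAs (11 members) had -0.13 and -0.37. Mir451a, needed in red cell maturation, had 19.9 ± 2.2, 12.6 ± 4.3, 12.6 ± 11.7 and 14.9 ± 1.5, and Mir146, a brake on innate immune signalling, 19.3 ± 6.2, 13.5 ± 4.7, 11.3 ± 12.3 and 14.9 ± 3.3. Neural microRNAs (4 members) had 0.45 and -0.03, with Mir138-1 at 31.7 ± 8.4, 16.6 ± 7.2, 17.7 ± 15.1 and 17.7 ± 7.9 and Mir138-2 at 20.7 ± 6.4, 11.3 ± 3.1, 10.2 ± 9.1 and 10.6 ± 3.8. Liver and gut microRNAs (3 members) had -0.34 and -0.76, with Mir216b at 4.3 ± 1.1, 6.4 ± 1.8, 4.5 ± 1.3 and 4.4 ± 2.2 and Mir217 at 4.7 ± 3.1, 4.3 ± 1.6, 2.9 ± 4.3 and 5.6 ± 1.5. Other CG-poor promoters had medians of -0.13 and -0.64 in the CG range of the muscle list. In the range of the blood and immune list they had -0.15 and -0.65. For the neural range these were -0.02 and -0.63, and for liver and gut -0.54 and -0.88.

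Epithelial microRNAs (4 members) had the highest C57BL/6J median of the lists at 0.77, beside -0.08 in FVB/N, and a median of 24.5 CG sites. Mir183, of the sensory organ cluster, had 54.4 ± 20, 20.7 ± 9.8, 28.2 ± 20.6 and 20.3 ± 2.8 normalized reads and Mir429, of the miR-200 family, 30.4 ± 8.3, 15.2 ± 2.8, 18.1 ± 12.9 and 20.2 ± 4.0. The early embryo list held only the miR-302/367 cluster, 5 symbols in 1 region on chromosome 3 that count as 1 observation, with 0.09 and -0.65; Mir367 had 12.3 ± 5.0, 10.4 ± 4.0, 9.6 ± 3.7 and 10.5 ± 6.0 and Mir302d 10 ± 4.9, 9.4 ± 2.9, 7.6 ± 3.1 and 9.4 ± 5.2. The miR-29 and miR-30 families (8 members) had 0.11 and -0.59, and Mir30c-1 and Mir30e, neighbours on chromosome 4, were higher in controls in both strains as deposited, at 15.9 ± 3.5, 12.1 ± 4.9, 13.2 ± 5.8 and 10.6 ± 1.7 and at 13.4 ± 7.3, 7.0 ± 3.2, 13.7 ± 4.4 and 8.9 ± 4.8. MicroRNAs reported in sperm of stressed males (6 members) had 0.32 and -0.51. Mir32 had 44.4 ± 11.1, 18.9 ± 8.6, 24.7 ± 12.2 and 20.5 ± 2.4, and Mir204 17.5 ± 3.4, 14.3 ± 3.6, 5.3 ± 7.0 and 19.1 ± 2.2. Other CG-poor promoters had medians of 0.11 and -0.53 in the CG range of the epithelial list. In the range of the early embryo list they had 0.11 and -0.52. For the miR-29 and miR-30 range these were -0.415 and -0.80, and for the stress list 0 and -0.64. The gonadal microRNA Mir202 was outside the CG-poor class, so that list had 0 members.

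Under equal sums the C57BL/6J medians of the muscle, neural, early embryo, miR-29/30, miR-15/16 with miR-23/24/27 and stress lists turned negative. Under equal medians the FVB/N medians of the muscle, blood and immune, neural, epithelial and stress lists turned positive, and under equal sums those of the neural and epithelial lists did.

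Between the strains, the comparison of control with DEHP depended on the scale of the means. As deposited, the log2 ratio was below 0 in both strains for 157 members (38%, against 37.3% of all promoters), above 0 in both for 91 (22%, against 23.1%), positive for C57BL/6J but negative for FVB/N for 152 (36.8%, against 30.6%), and the reverse for 5 (1.21%, against 5.21%). Under equal sums the opposite signs became 49 and 31 members (11.9% and 7.51%, against 11.3% and 13.2% of all promoters). Under equal medians they became 47 and 33 (11.4% and 7.99%, against 14.2% and 15.2%). The difference of both ratios, C57BL/6J less FVB/N, had a median of 0.67 (0.50 over all promoters) and was above 0 for 365 of 413 (88.4%, against 77%). This median became 0.11 under equal sums and 0.14 under equal medians (-0.015 and 0.011 over all promoters), with 245 and 258 members above 0 (48.9% and 51% of all promoters). C57BL/6J controls had higher means than FVB/N controls with a median log2 ratio of 0.67 (0.54 over all promoters), whereas the DEHP groups had -0.01 (0.04). The median in controls became 0.08 under equal sums and 0.03 under equal medians, against 0.001 and -0.045 over all promoters, and in DEHP it became -0.04 and -0.11.

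Compared between strains in controls, C57BL/6J lay above FVB/N for 6 separated members (1.45%, against 1.06%) and FVB/N above C57BL/6J for 0 (against 0.0267%, and 0 too under equal sums, against 0.111%, and equal medians, against 0.129%). With DEHP 0 members were separated in either direction (against 0.307% and 0.0311%). No p-value accompanies these counts. The 6 were Mir6388, Mir6358, Mir6937, Mir100, Mir190a and Mir7227, and each of their probes carried between 10 and 55 variants between the strains. Of the 230 members without a variant 0 were separated. Shares by number of variants were not computed over all promoters, so this split has nothing to be read against. Mir6937, in an intron of Adi1 with 44 variants, had 26.6 ± 5.6, 19.0 ± 7.5, 7.3 ± 4.3 and 8.6 ± 1.6 normalized reads, and Mir190a, in an intron of the talin gene Tln2 with 34, had 31.3 ± 5.6, 18.7 ± 3.8, 12.3 ± 4.2 and 9.6 ± 3.3. Both were lower in FVB/N in DEHP too. Mir100, a relative of miR-99 hosted by a non-coding gene and with 11 variants, had 24.8 ± 3.4, 19.6 ± 5.4, 7.7 ± 2.7 and 17.3 ± 3.0, so that the gap was small in DEHP.

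Mir6388 was the 1 member that stayed separated between strains in controls under equal sums (0.307% of all promoters) and equal medians (0.289%). After DEHP, 0 members had C57BL/6J above under either scale (0.294% and 0.258%), and FVB/N lay above for 0 under equal sums (0.0356%) and for Mir6345 under equal medians (0.0445%). Mir6388 lies on chromosome 12 (chr12:115695595-115697794, 26 CG sites, 55 variants, 48.9% repeat-masked, 86.1% unique), between immunoglobulin heavy chain variable genes, 172 at lower and 22 at higher coordinates. It had 17.4 ± 9.2 normalized reads in C57BL/6J controls and 6.0 ± 2.6 in C57BL/6J DEHP, against 0 ± 0 and 0.7 ± 0.7 in the FVB/N groups. No fold is given against a group listed at 0. Mir7094-1, also among the immunoglobulin variable genes and with 58 variants, was listed at 0 in both FVB/N groups and at 1.6 ± 1.8 and 3.3 ± 1.9 in C57BL/6J. The part of variants in mapping FVB/N reads to the mm10 genome, which derives from C57BL/6J, was not tested.

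By number of variants, the median log2 ratio of C57BL/6J over FVB/N in controls was 0.61 without a variant (n = 230), 0.67 with 1 to 4 (n = 98) and 0.79 with 5 or more (n = 85). In DEHP it was -0.05, -0.04 and 0.17.

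**Figure D5:**
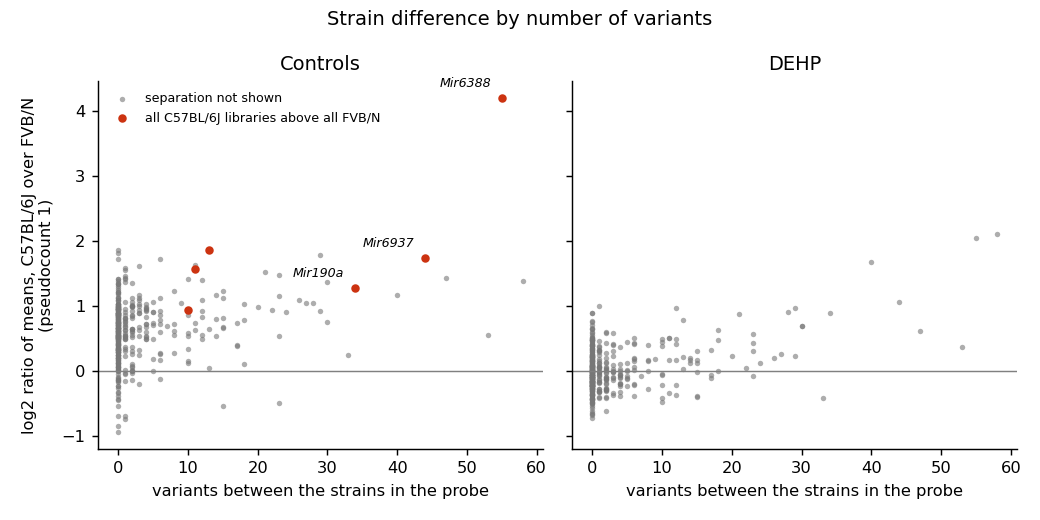
Log2 ratio of means, C57BL/6J over FVB/N (y axis, pseudocount 1), against the number of variants between the strains in the probe (x axis), in controls and in DEHP; red points are members whose C57BL/6J libraries all lie above those of FVB/N. There are 6 red points in controls, Mir6388 the highest, and 0 in DEHP.

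Position in a host gene went with CG sites and level. Exonic members on the host's strand (n = 64, median 23 CG sites) had median log2 ratios of 0.52 for C57BL/6J and -0.16 for FVB/N, intronic ones on that strand (n = 203, 20 sites) 0.34 and -0.43, intergenic ones (n = 96, 16.5 sites) -0.12 and -0.54, and intronic ones on the opposite strand (n = 47, 17 sites) -0.21 and -0.74. Members numbered 1000 or above had 0.35 and -0.42 with 20 CG sites in the median, and those under 1000 with let-7 0.05 and -0.52 with 17. There were 5 members whose probe holds the annotated start of a protein-coding gene, Mir146b, Mir208b, Mir7076, Mir713 and Mir7684, and of these 0 were separated in either strain. They are too few to set against shares of all promoters of 1.42% or less in each direction.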

How the data were processed

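Sperm DNA of 20 libraries was measured by MBD-sequencing. Per the labels and methods, the authors aligned read pairs to mm10 with Bowtie 0.12.7, dropped pairs with several positions, counted pairs overlapping each probe and normalized them with edgeR; the signal used here is the mean and SD per group that the authors deposited, to 1 decimal. The same table holds the authors' fold changes, p-values and FDR, and expression values, none of which were used. Single libraries were not analysed here, so the depth of each is not known. The study's methods give a larger average number of read pairs for DEHP than for control libraries. Without single libraries, the count test planned for single libraries was replaced by ratios of means (pseudocount 1) and the separation described above, which was tested on simulated data.

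Groups came from sample titles. Members, lists and tests were chosen with earlier results of these data known. CG sites and variants were the authors' annotations. Sequence, repeats and unique 51-base sequences (every 20 bases) came from GRCm38.p6, gene models from GENCODE M21. Named members were, by a set rule, the 5 with the largest separated log2 ratio in each strain and direction and between strains in controls, those separated in both strains, the highest and lowest levels, those at the CG limit, the highest of each list, and those a small count singles out. Alternatives were equal sums, equal medians, a pseudocount of 0.1, means of at least 1, ranges of 1 SD, merged overlapping probes, CG sites recounted in the genome, and unique members. Python 3.11.15, numpy 2.4.6, pandas 2.3.3, scipy 1.17.1, numba 0.67.0 and matplotlib 3.10.9 were used.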

Additional observations from a re-analysis of the deposited data

How the results depend on the processing

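Of 119 values recomputed over 17 results and 8 alternatives, 91 counted as the same, 26 moved and 2 turned. Counts were the same within 1.5 times. Medians were the same if they kept their sign and moved by less than the members' median SD of a single promoter's ratio between libraries. That SD is wide, at 1.005 for the strain ratio in controls, whose fall from 0.667 to 0.083 under equal sums counted as the same. So did the fall of the strain by DEHP difference from 0.674 to 0.111. Under equal sums, C57BL/6J control-above separations went from 7 to 0, members past 1 from 53 to 4 and past -1 from 31 to 73, the C57BL/6J median turned to -0.313, FVB/N members past 1 went from 3 to 6, and separations between strains in controls from 6 to 1. Under equal medians, FVB/N separations became 14 with controls above and 2 with DEHP above, members past 1 became 43 and past -1 26, the FVB/N median turned to 0.142, strain separations became 1 in controls and, with FVB/N above in DEHP, 1. Both alternatives only rescale the groups, so these moves come from the scale. A pseudocount of 0.1 gave 5 FVB/N members past 1. Ranges of 1 SD, which no longer bound every library, gave 62 C57BL/6J members with controls above (15%, against 11.2% of all promoters) and 19 with DEHP above (4.6%, against 2.88%), 11 and 46 FVB/N members (2.66% and 11.1%, against 3.4% and 7.4%), 41 between strains in controls (9.93%, against 8.81%), and 10 and 3 in DEHP (2.42% and 0.73%, against 2.22% and 0.507%). The alternative of 193 members whose sampled sequences were all unique was chosen after seeing the data and has fewer members by construction. C57BL/6J separations were 2 in each direction, with 25 members past 1 and 15 past -1. FVB/N had 2 with DEHP above and 42 past -1, and 1 remained between strains in controls. These raw counts were compared with those of all 413 members and are among the 26 that moved. Shares of the smaller set were not computed, so these moves do not show that uniqueness matters. The C57BL/6J median of 0.274 and the FVB/N median of -0.411 counted as the same. No paired analysis was possible because the labels carry no replicate numbers and only group means were used; for the same reason no library was left out in turn. Probes with 3 to 9 CG sites had medians of 1.65 and 1.1 normalized reads in the control groups, and what depth limits there was not tested.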
